A study of Mus musculus with 9 samples.

Results

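Claudins are the membrane proteins whose extracellular loops meet between neighbouring epithelial cells and form the strands of the tight junction. Some of them seal the space between cells and others line pores through which ions and water pass, so the mix of claudins sets how leaky an epithelium is and for what. In the colon the pore-forming Cldn2 is known mainly from crypts, Cldn15 forms a sodium-permeable pore of the intestine, Cldn3, Cldn4, Cldn7 and Cldn8 are counted as sealing claudins, and Cldn12 and Cldn23 are set apart from both classes here. These 8 colon epithelial claudins were picked by name and found on the arrays through the transcript accession of each probe. They are 8 of the 14189 genes with a symbol that could be tested. Each had 1 probe, and all 8 probes were well above background on all 9 arrays, so none was lost to the filter on low values.

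RNA came from colonic mucosa, labelled as normal, of ICR mice, an outbred stock. All 3 groups had received the carcinogen 1,2-dimethylhydrazine (DMH) under the skin, 20 mg/kg once a week over 20 weeks, so no group shows the colon without carcinogen. The group hCA-Notumor had a diet with 3% calcium and was labelled as without tumors, the group hCA-Tumor had the same diet and was labelled as having tumors, and the group DMH had a diet with 1.24% calcium and a tumor status given only as control. Each group had 3 arrays, and the labels do not tell whether those are different mice. The p-values therefore rest on the spread among 3 arrays, part or all of which could be technical. The series set the high calcium groups against DMH to ask how calcium acts in a colon cancer model.

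Values are log2 fluorescence signals minus the array's own 75th percentile signal. A value of 0 is therefore a signal equal to that percentile, and a difference of 1 is a doubling. Values are compared between groups for 1 gene and not between genes, since probes differ in brightness for the same amount of RNA. Differences were tested with limma over all 21083 features and adjusted with Benjamini-Hochberg within each comparison, and a gene is said to have risen or fallen where its adjusted p was under 0.05. The 75th percentile signal was 572.5 to 819.2 over the arrays against a median local background of 33.5 to 50, no spot was saturated, and the number of arrays limits the precision. The arrays lay on 3 slides. Slide 1 held the 3 hCA-Notumor arrays and DMH replicate 1, slide 2 held hCA-Tumor replicates 1 and 2 and DMH replicates 2 and 3, and slide 3 held hCA-Tumor replicate 3 alone. Within-slide differences below set each high calcium group against the DMH arrays of its own slide, drop hCA-Tumor replicate 3, and carry the adjusted p of the fit with slide as a block. That of hCA-Notumor rests on a single DMH array. The high calcium groups never shared a slide, and their slide-adjusted difference is the one within-slide difference minus the other and rests on that array too. In colonic mucosa taken whole, fewer cells of a type and less RNA per cell cannot be told apart.

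The promoters of 4 claudins are printed because these genes give the contrasts that follow: the pore-forming pair, which was lower in hCA-Tumor, and the neighbouring Cldn4 and Cldn3, of which the first fell in both high calcium groups and the second did not pass in either. Each is the 250 bases before the transcription start in RefSeq assembly GRCm38.p6, read 5′ to 3′ on the gene's strand, with matches to the searched motifs in capitals.
Cldn2 chrX:139800558-139800807 (+): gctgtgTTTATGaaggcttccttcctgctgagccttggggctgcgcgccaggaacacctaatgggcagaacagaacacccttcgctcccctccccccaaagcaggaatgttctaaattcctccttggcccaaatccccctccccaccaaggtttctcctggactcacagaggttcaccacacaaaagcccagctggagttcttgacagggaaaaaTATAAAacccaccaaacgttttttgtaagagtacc
Cldn15 chr5:136967619-136967868 (+): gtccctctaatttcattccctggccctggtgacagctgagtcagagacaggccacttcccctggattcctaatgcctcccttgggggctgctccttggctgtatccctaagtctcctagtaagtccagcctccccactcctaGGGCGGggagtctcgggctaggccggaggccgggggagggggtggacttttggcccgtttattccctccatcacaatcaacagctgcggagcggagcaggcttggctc
Cldn4 chr5:134946935-134947184 (-): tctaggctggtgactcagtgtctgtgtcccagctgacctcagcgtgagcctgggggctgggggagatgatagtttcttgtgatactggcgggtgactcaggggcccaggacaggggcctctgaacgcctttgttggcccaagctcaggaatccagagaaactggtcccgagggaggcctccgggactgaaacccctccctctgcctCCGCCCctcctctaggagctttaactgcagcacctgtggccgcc
Cldn3 chr5:134985964-134986213 (+): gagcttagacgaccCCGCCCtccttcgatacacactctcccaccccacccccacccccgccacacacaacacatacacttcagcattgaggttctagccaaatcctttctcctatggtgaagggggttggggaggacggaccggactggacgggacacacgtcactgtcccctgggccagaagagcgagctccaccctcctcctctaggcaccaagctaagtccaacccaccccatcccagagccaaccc

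Promoter sequences of 6 of the claudins were searched for 8 motifs on both strands. The capitals in the Cldn2 promoter are a Cdx-type TTTATG at positions -244 to -239 from the start and a TATA box TATAAA at -35 to -30. Cdx factors are homeodomain proteins that specify intestinal epithelium. TTTATG was present in 10.8% and TATAAA in 12.4% of 32817 mouse promoter windows of this length. The capitals in the other printed sequences are GC boxes GGGCGG, the element bound by Sp1, or its reverse complement, which 32.7% of windows held. The GC box lay at -108 to -103 in Cldn15, at -44 to -39 in Cldn4 and at -236 to -231 in Cldn3. The printed window of Cldn2 had 52% G and C and 4 CpG, that of Cldn15 60.8% and 7, that of Cldn4 62% and 7, and that of Cldn3 60.8% and 9, against a median of 52.4% over all windows. None of these windows held the other motifs searched, which were CTTTGA for TCF/LEF (in 13.8% of windows), AGATAA for zinc finger factors of the intestine (9.99%), CAAAGTCCA for Hnf4a (0.384%), the CCAAT box (33.8%) and the palindromic Hnf1 motif (0.00914%). A match is a description of these letters and shows no binding. Cldn3 and Cldn4 are next to each other among the coding genes of chromosome 5 and lie on opposite strands, and Cldn15 is on the same chromosome.

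The pore-forming claudins were lowest in the high calcium group with tumors. Cldn2 and Cldn15 fell there by 0.49 and 0.80 on the log2 scale against DMH, which is 1.4-fold and 1.74-fold, and both were higher in hCA-Notumor than in hCA-Tumor. In hCA-Notumor neither passed the test against DMH.

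Cldn2, the cation and water pore of leaky epithelia, had values of 2.35, 2.16 and 2.25 in hCA-Notumor, 1.65, 1.56 and 1.48 in hCA-Tumor and 2.11, 1.97 and 2.07 in DMH. The groups did not overlap, with hCA-Notumor highest and hCA-Tumor lowest. Its difference from DMH was -0.49 ± 0.07 (SE, n = 3 arrays per group) in hCA-Tumor (limma adjusted p = 0.00188; within slide -0.42, adjusted p = 0.0102). In hCA-Notumor it was 0.20 ± 0.07 and did not pass (limma adjusted p = 0.0607, 95% interval 0.04 to 0.37; within slide 0.14, adjusted p = 0.304), although it passed in the fit without hCA-Tumor replicate 3 (limma adjusted p = 0.0494). From hCA-Tumor to hCA-Notumor it was 0.69 ± 0.07, a 1.62-fold higher signal without tumors (limma adjusted p = 0.000284; slide-adjusted 0.56, adjusted p = 0.023).

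Cldn15, the sodium pore on which nutrient absorption in the intestine draws, had values of 3.65, 3.46 and 3.58 in hCA-Notumor, 2.95, 2.80 and 2.97 in hCA-Tumor and 3.83, 3.61 and 3.67 in DMH. All hCA-Tumor arrays lay below the other 6, while the hCA-Notumor and DMH arrays overlapped. Its difference from DMH was -0.80 ± 0.08 in hCA-Tumor (limma adjusted p = 0.000519; within slide -0.77, adjusted p = 0.00201) and -0.14 ± 0.08 in hCA-Notumor (limma adjusted p = 0.227, 95% interval -0.33 to 0.06). The hCA-Notumor level was 1.58-fold that of hCA-Tumor, a difference of 0.66 ± 0.08 (limma adjusted p = 0.000657; slide-adjusted 0.50, adjusted p = 0.0346). Genes of mesothelium, the lining of the outer gut wall, went the other way between the high calcium groups. All 4 of the tested markers of 5 listed were higher in hCA-Tumor than in hCA-Notumor, where 47.6% of all features passed. Their summed signal was 0.706 to 0.761 in hCA-Notumor, 2.54 to 3.03 in hCA-Tumor and 1.90 to 2.25 in DMH, in units of the 75th percentile signal. This sum was mostly that of the Msln probe, and in it DMH lay between the high calcium groups. Of these markers, Upk3b was not well above background on any hCA-Notumor array, and Wt1 on no hCA-Notumor or DMH array, so both met the filter through groups in which they were high. The part of mesothelium in the level of Cldn15 was not tested.

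Cldn23, a claudin of differentiated colonocytes, was lowest in hCA-Tumor as well. Its values were 3.14, 3.17 and 3.32 in hCA-Notumor, 2.80, 2.73 and 2.84 in hCA-Tumor and 3.35, 3.41 and 3.32 in DMH. As for Cldn15, the hCA-Tumor arrays stood below all others, and hCA-Notumor reached the lowest DMH array. It fell by 0.57 ± 0.06 in hCA-Tumor against DMH, 1.49-fold (limma adjusted p = 0.000602; within slide -0.60, adjusted p = 0.0031). Against DMH the difference in hCA-Notumor was -0.15 ± 0.06 (limma adjusted p = 0.104), and -0.20 without hCA-Notumor replicate 3, where it passed (limma adjusted p = 0.0484). The level in hCA-Notumor was 1.34-fold that in hCA-Tumor, a difference of 0.42 ± 0.06 (limma adjusted p = 0.00132; slide-adjusted 0.46, adjusted p = 0.0346). Across the 9 arrays, which share their scaling and fall into 3 groups, Cldn15 correlated with Cldn23 (Pearson r = 0.95) and Cldn2 with Cldn15 (r = 0.88) and Cldn23 (r = 0.79).

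**Figure D1:**
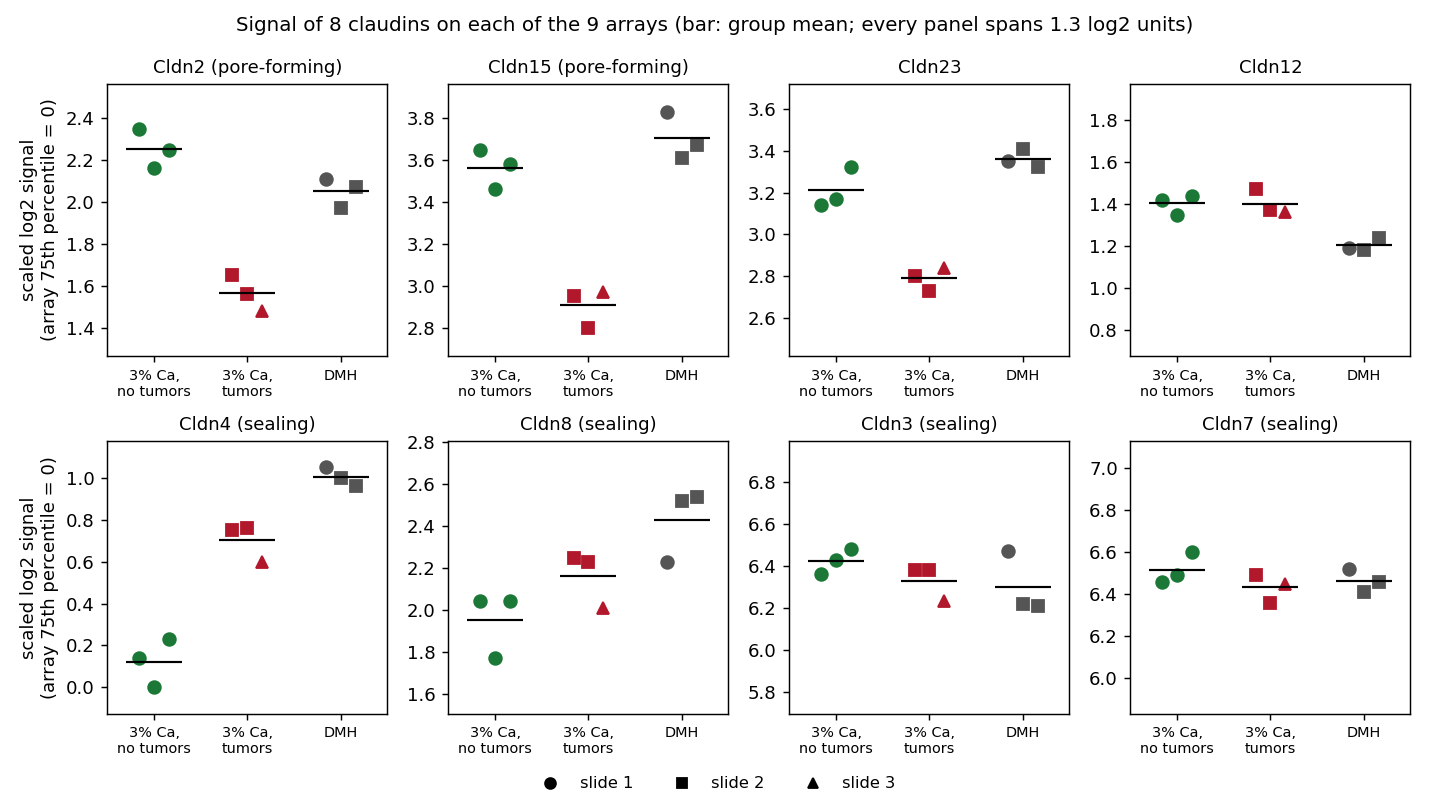
Scaled log2 signal (array 75th percentile = 0) of each of the 8 claudins on the 9 arrays, by group, with the group mean as a bar and the marker shape giving the slide; every panel spans the same number of log2 units. The hCA-Tumor arrays were lowest for Cldn2, Cldn15 and Cldn23, the hCA-Notumor arrays were lowest for Cldn4, and the groups overlapped for Cldn3 and Cldn7.

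Among the sealing claudins Cldn4 changed most. It fell in both high calcium groups, 1.83-fold in hCA-Notumor and 1.23-fold in hCA-Tumor. Cldn8 fell 1.39-fold in hCA-Notumor and did not pass in hCA-Tumor, and Cldn3 and Cldn7 did not pass in any comparison.

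Cldn4, a barrier claudin of surface epithelium, had values of 0.14, 0.00 and 0.23 in hCA-Notumor, 0.75, 0.76 and 0.60 in hCA-Tumor and 1.05, 1.00 and 0.96 in DMH. The 3 groups were fully apart, with DMH highest. Its difference from DMH was -0.88 ± 0.07 in hCA-Notumor (limma adjusted p = 0.000167; within slide -0.92, adjusted p = 0.00215). In hCA-Tumor it was -0.30 ± 0.07 (limma adjusted p = 0.0165), and within the slide -0.23, where it did not pass (adjusted p = 0.0687). From hCA-Tumor to hCA-Notumor it differed by -0.58 ± 0.07, a 1.49-fold lower level without tumors (limma adjusted p = 0.000727; slide-adjusted -0.69, adjusted p = 0.0138). Markers of squamous epithelium, a tissue next to the distal colon, had the group order of Cldn4 in their sum, mostly that of the Krt14 probe. The summed signal was 1.13 to 1.26 in hCA-Notumor, 2.44 to 2.92 in hCA-Tumor and 4.40 to 4.91 in DMH. By group mean, Krt5 and Krt4 were instead highest in hCA-Tumor. Of the 5 markers tested of 6 listed, 4 fell in hCA-Notumor and 3 in hCA-Tumor against DMH, where 35.7% and 37% of all features passed. Of these, Dsg3 met the filter only through DMH, where it was high (1 of 3 arrays well above background in each high calcium group), and Krt4 was well above background on 1 hCA-Notumor array. The summed signal of markers of the crypt and of proliferation, mostly that of the Mki67 probe, ran in the same order, 9.86 to 11.4, 14.2 to 16 and 17.2 to 18.4. Its members differed among themselves: of 7 tested of 8 listed, 5 fell in hCA-Notumor against DMH, while 2 rose and 3 fell in hCA-Tumor, and Lgr5 and Smoc2 were highest in hCA-Tumor. The part of either in the level of Cldn4 was not tested.

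Cldn8, which seals the distal colon against sodium and is induced by aldosterone, had values of 2.04, 1.77 and 2.04 in hCA-Notumor, 2.25, 2.23 and 2.01 in hCA-Tumor and 2.23, 2.52 and 2.54 in DMH. The hCA-Notumor arrays lay below the DMH arrays, of which the one on slide 1 was lowest, and the hCA-Tumor arrays overlapped both. The difference of hCA-Notumor from DMH was -0.48 ± 0.12 (limma adjusted p = 0.0187), but within the slide it was -0.28 and did not pass (adjusted p = 0.139). It was also lost without DMH replicate 2 (adjusted p = 0.0666), without DMH replicate 3 (0.0675) and without hCA-Notumor replicate 2 (0.0562). In hCA-Tumor the difference from DMH was -0.27 ± 0.12 (limma adjusted p = 0.124, 95% interval -0.55 to 0.01), and -0.37 without DMH replicate 1, where it passed (limma adjusted p = 0.045). Set against hCA-Tumor, hCA-Notumor differed by -0.21 ± 0.12 (limma adjusted p = 0.188), slide-adjusted 0.01.

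Cldn3 and Cldn7, the sealing claudins with the brightest probes here, had overlapping groups throughout. Cldn3 had values of 6.36, 6.43 and 6.48 in hCA-Notumor, 6.38, 6.38 and 6.23 in hCA-Tumor and 6.47, 6.22 and 6.21 in DMH. The DMH arrays differed by slide, with the one on slide 1 above both on slide 2. Against DMH, Cldn3 differed by 0.12 ± 0.08 in hCA-Notumor (limma adjusted p = 0.283, 95% interval -0.07 to 0.32). It differed by 0.21 with limma adjusted p = 0.0456 in the fit without DMH replicate 1, and by -0.04 within the slide. In hCA-Tumor it differed by 0.03 ± 0.08 (limma adjusted p = 0.845, 95% interval -0.17 to 0.22). Cldn7, whose loss disrupts the intestinal epithelium in mice, had values of 6.46, 6.49 and 6.60 in hCA-Notumor, 6.49, 6.36 and 6.45 in hCA-Tumor and 6.52, 6.41 and 6.46 in DMH. Its difference from DMH was 0.05 ± 0.06 in hCA-Notumor (95% interval -0.09 to 0.19) and -0.03 ± 0.06 in hCA-Tumor (95% interval -0.17 to 0.11), with limma adjusted p = 0.519 and 0.747. With 3 arrays per group, the data leave room for any difference within these intervals. Epcam, an epithelial adhesion protein that binds Cldn7, differed from DMH by -0.01 in both high calcium groups (limma adjusted p = 0.858 and 0.914).

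Cldn12, named together with Cldn2 for calcium passage between intestinal cells, was the only one of the 8 that rose against DMH in the 2 high calcium groups. Its values were 1.42, 1.35 and 1.44 in hCA-Notumor, 1.47, 1.37 and 1.36 in hCA-Tumor and 1.19, 1.18 and 1.24 in DMH. Every DMH array lay below all 6 high calcium arrays, which overlapped each other. The rise was 0.20 ± 0.05, or 1.15-fold, in hCA-Notumor (limma adjusted p = 0.0184; within slide 0.21, adjusted p = 0.0786) and 0.20 ± 0.05 in hCA-Tumor (limma adjusted p = 0.0181; within slide 0.21, adjusted p = 0.0365). With another background correction (normexp) it was 0.11 and 0.17 and did not pass (adjusted p = 0.304 and 0.111), and in the whole-series table the authors deposited, which is scaled to each array's median, it was 0.01 and 0.07, where the median of all features was -0.14 and -0.06. The call in hCA-Notumor was also lost without hCA-Notumor replicate 1 (limma adjusted p = 0.0596), hCA-Notumor replicate 3 (0.0656) or DMH replicate 2 (0.0658), and that in hCA-Tumor without hCA-Tumor replicate 1 (0.0628) or DMH replicate 2 (0.0594). The high calcium groups differed by 0.00 ± 0.05 (95% interval -0.11 to 0.12).

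**Figure D2:**
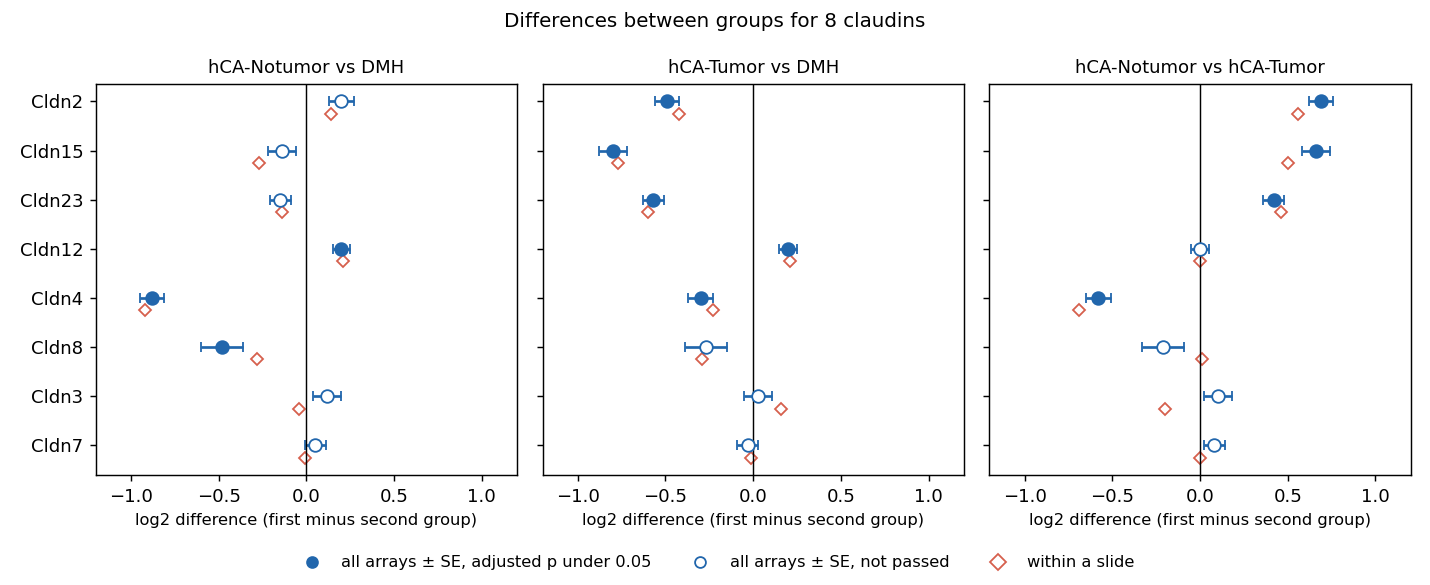
Log2 differences (first minus second group) of the 8 claudins in 3 comparisons; circles give limma's estimate over all arrays ± SE, filled where the adjusted p was under 0.05, and open diamonds the within-slide difference (in the right panel, the slide-adjusted one). Within slides the pore-forming pair and Cldn23 kept the sign and nearly the size of their falls in hCA-Tumor, while the difference of Cldn8 in hCA-Notumor went from -0.48 to -0.28.

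Counted over the 8 claudins, 1 rose and 2 fell in hCA-Notumor against DMH, where 35.7% of all tested features passed (18.4% higher and 17.3% lower). In hCA-Tumor against DMH, 1 rose and 4 fell, where 37% of all features passed (21% higher and 15.9% lower). For both high calcium groups averaged against DMH the counts were again 1 and 4, where 31.6% of features passed (17.9% higher and 13.8% lower). Between the high calcium groups 3 were higher and 1 lower in hCA-Notumor, where 47.6% of features passed (20.6% higher and 27% lower). The comparisons with DMH share the DMH arrays. The median difference of the 8 claudins was -0.04, -0.28, -0.25 and 0.09 in these comparisons, against 0.07, 0.08, 0.07 and 0.00 over all features, and the single differences ran from -0.88 to 0.69. Arrays of the groups did not overlap for 4, 5, 2 and 4 of the claudins, where 57.8%, 49.5%, 20% and 59.1% of all features were apart. The 3 and 4 claudins past the test in the comparisons of hCA-Notumor with DMH and with hCA-Tumor are near the share of all features, and the 5 in each of the others are above it. As 8 genes picked by name, they give no result from these shares, and their directions and sizes carry the description. With both high calcium groups averaged, Cldn4 differed from DMH by -0.59 ± 0.06, Cldn15 by -0.47 ± 0.07, Cldn8 by -0.37 ± 0.10, Cldn23 by -0.36 ± 0.05 and Cldn12 by 0.20 ± 0.04, all past the test, and Cldn2 by -0.14 ± 0.06, which did not pass (limma adjusted p = 0.124). Cldn8 lost this call without DMH replicate 2 (adjusted p = 0.114) or 3 (0.122), and Cldn12 without DMH replicate 2 (0.052). Of the features that passed, 51.5%, 56.9%, 56.5% and 43.3% were higher in the first group, but 29.3%, 39.5%, 30.3% and 37% in the authors' whole-series table.

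The balance of pore-forming and sealing claudins lay above DMH in hCA-Notumor, mostly through Cldn4, and below DMH in hCA-Tumor. For each array the mean of Cldn2 and Cldn15 minus the mean of Cldn3, Cldn4, Cldn7 and Cldn8 was taken, each gene relative to its own DMH mean. This log2 balance was 0.42, 0.31 and 0.25 in hCA-Notumor, -0.50, -0.58 and -0.42 in hCA-Tumor and 0.08, -0.08 and 0.00 in DMH. The 3 groups were fully apart, and the balance is given as a description with no test. The group means were 0.33 ± 0.09, -0.50 ± 0.08 and 0.00 ± 0.08 (SD, n = 3).

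Different genes made up the balance in each group. In hCA-Notumor the pore-forming mean stayed near DMH (0.12, -0.06 and 0.04) and the sealing mean was below it (-0.30, -0.38 and -0.21). In hCA-Tumor the pore-forming mean was -0.58, -0.70 and -0.65 and the sealing mean -0.08, -0.12 and -0.23. Without Cldn4 the balance against DMH was 0.13 in hCA-Notumor and -0.55 in hCA-Tumor, so the first rested mostly on Cldn4 and the second did not. The balance of hCA-Notumor minus that of hCA-Tumor was 0.83 with Cldn4 and 0.69 without it. Within slides the balance against DMH was 0.25 in hCA-Notumor and -0.50 in hCA-Tumor. The within-slide differences of hCA-Notumor were 0.14 for Cldn2 and -0.27 for Cldn15. Among the sealing claudins they were -0.92 for Cldn4, -0.28 for Cldn8, -0.04 for Cldn3 and -0.01 for Cldn7. The within-slide balance of hCA-Notumor thus rested mostly on Cldn4 too.

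**Figure D3:**
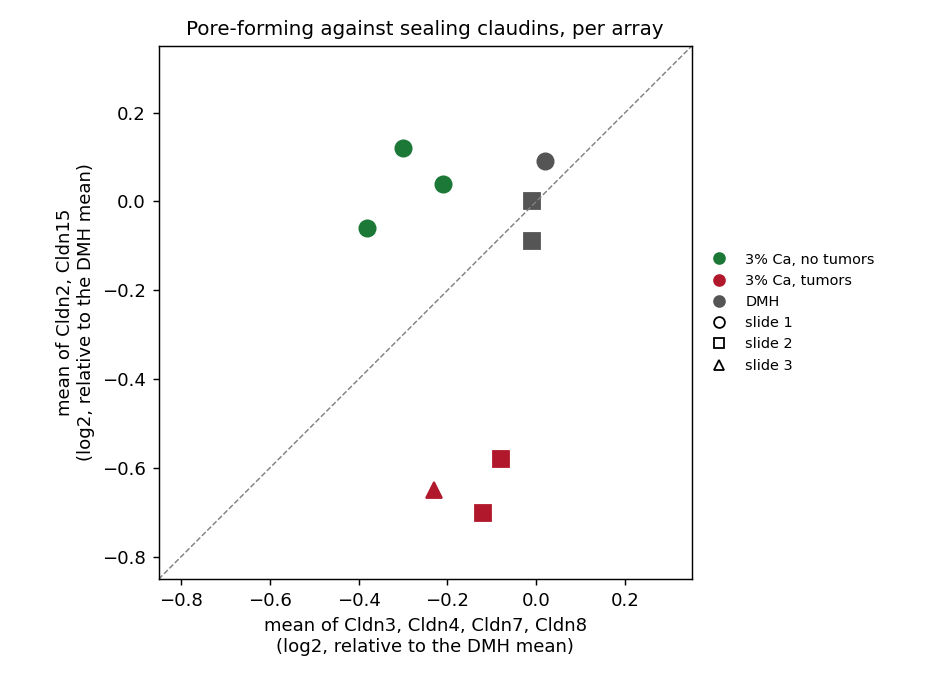
Mean log2 signal of the pore-forming Cldn2 and Cldn15 (vertical axis) against that of the sealing Cldn3, Cldn4, Cldn7 and Cldn8 (horizontal axis), each gene relative to its DMH mean, with 1 point per array, colour for the group and shape for the slide; on the dashed line both are equal. The hCA-Notumor arrays lie left of the DMH arrays at a like height and the hCA-Tumor arrays far below them.

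The genes whose level over the 9 arrays was most like that of each claudin were taken from 14135 named features by Pearson r. With 3 groups of 3 that differ in so many genes, high values of r are common, and they are given as a description. Cldn15 was most like Spdef (r = 0.998), the transcription factor of goblet cell maturation, which fell by 1.1 ± 0.1 in hCA-Tumor against DMH (limma adjusted p = 0.000345), then Ccl12 (0.991), a chemokine, and Fut2 (0.990), a fucosyltransferase of the gut surface. Cldn2 was most like Bcat2 (0.997), a mitochondrial aminotransferase of branched-chain amino acids, Ppp1r9b (0.996) and Pcna (0.995), the DNA polymerase clamp. Cldn4 was most like Pglyrp1 (0.996), a bactericidal protein, Cdc25b (0.996), a phosphatase that starts mitosis, and Trip13 (0.995). Cldn8 was most like Tars (0.991), Gsr (0.984) and Tomm5 (0.983), Cldn23 like Slc22a29 (0.981), Itga2 (0.980) and Lrrc14 (0.975), and Cldn12 like Tagap1 (0.984), Emx1 (0.974) and Zmym2 (0.970). For Cldn3 the highest were Ap2m1 (0.972), Glg1 (0.971) and Rab5a (0.966), and for Cldn7, which varied least between groups, Syap1 (0.891), Olfr691 (0.856) and 1110032A03Rik (0.848). Among the claudins, Cldn4 correlated with Cldn8 (r = 0.85) and negatively with Cldn12 (r = -0.66), Cldn3 (-0.42) and Cldn2 (-0.41), and Cldn3 correlated with Cldn7 (0.59).

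Markers of cell types were read beside the claudins. Over all features 35.7% passed in hCA-Notumor against DMH, 37% in hCA-Tumor against DMH and 47.6% between the high calcium groups. These shares, here and below, are from the fit without slide as a block and are no background for counts with it. Of the features behind them, 4661, 6811 and 5014 also passed with the block. Of 8 absorptive colonocyte markers, 4 rose in hCA-Notumor against DMH (50%, 2 with slide as a block). In hCA-Tumor 1 rose and 2 fell (37.5%, near the share of all features), and of the falls Slc9a3 was well above background on 1 of 3 hCA-Tumor arrays. Against hCA-Tumor, 5 of these 8 markers were higher in hCA-Notumor (62.5%, 3 with the block). Their summed signals were 797 to 953 in hCA-Notumor, 637 to 851 in hCA-Tumor and 746 to 871 in DMH. Goblet cell markers (5 of 6 listed were tested) summed to 1120 to 1160, 797 to 947 and 855 to 944, and 4 were higher in hCA-Notumor than in hCA-Tumor (with the block, 2 higher and 1 lower). Cdx1, an intestinal homeobox factor, rose by 0.74 ± 0.07 in hCA-Notumor and fell by 0.61 ± 0.07 in hCA-Tumor against DMH (limma adjusted p = 0.000253 and 0.000672), the same order as Cldn2. Cdx2, its relative, fell in both, by 0.75 ± 0.08 and 1.57 ± 0.08 (limma adjusted p = 0.000447 and 4.49e-05), and was highest in DMH. How many of all features had the group order of Cldn2 was not counted. All 5 smooth muscle markers rose in both high calcium groups, but with slide as a block only Des of them passed in hCA-Notumor (median difference 0.42, against 0.85 without the block), with summed signals of 139 to 174, 207 to 260 and 72.5 to 123. Adipocyte markers fell (4 in hCA-Notumor and 3 in hCA-Tumor, of 4 tested and 5 listed; some were well above background on 2 of 3 high calcium arrays), with 3.87 to 6.59, 7.26 to 11.3 and 30.2 to 33.3. The summed signal of general colon epithelial markers was 935 to 1000, 866 to 915 and 779 to 889, all 8 listed being well above background. Most of it came from the Krt8 and Krt19 probes. Against DMH, 3 of the 8 rose and 1 fell in hCA-Notumor (50%; with the block 1 and 1). In hCA-Tumor 1 rose and 2 fell (37.5%; with the block 3 and 2). By group mean, Cdh1 and Krt18 were highest in hCA-Tumor and Cdx2 in DMH. The part of any of these in the claudin differences was not tested.

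Of 16 other claudins with a probe, 11 could be tested, and 5 (Cldn1, Cldn16, Cldn18, Cldn34b2 and Cldn34b3) were below the filter. In hCA-Notumor against DMH 2 of the 11 fell, in hCA-Tumor 1 rose and 1 fell, and between the high calcium groups 1 was higher and 1 lower without tumors. These are 18.2% of the 11 each time, below the 35.7%, 37% and 47.6% of all features in the same fit. With slide as a block 1 rose and 3 fell in hCA-Notumor against DMH, and 1 rose and 2 fell in hCA-Tumor. Between the high calcium groups the block left 1 higher and 1 lower. Cldn10, an ion pore in its known isoforms, had values of -3.45, -3.31 and -3.32 in hCA-Notumor, -2.21, -2.31 and -2.21 in hCA-Tumor and -2.77, -2.94 and -2.91 in DMH. The groups were fully apart in the order opposite to that of Cldn2, with hCA-Tumor highest. It fell by 0.49 ± 0.07 in hCA-Notumor (limma adjusted p = 0.00137) and rose by 0.62 ± 0.07 in hCA-Tumor (0.000551), and the high calcium groups differed by -1.11 ± 0.07, 2.16-fold (3.4e-05).

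Cldn6, a claudin of embryonic epithelia, was at the dim end and well above background on 2 of 3 arrays in each high calcium group. Its values were -5.24, -5.73 and -5.34 in hCA-Notumor, -5.49, -5.32 and -4.22 in hCA-Tumor and -3.71, -3.80 and -3.74 in DMH. All 6 high calcium arrays lay below DMH. The probe met the filter only through DMH, where it was high, so this difference is given with no test, and the falls counted above include it. Cldn5, the claudin of endothelium, had values of -0.01, -0.01 and -0.19 in hCA-Notumor, -0.39, -0.49 and -0.33 in hCA-Tumor and -0.10, -0.26 and -0.16 in DMH. It passed only between the high calcium groups, where it was higher without tumors by 0.33 ± 0.07 (limma adjusted p = 0.00858; slide-adjusted 0.25, adjusted p = 0.184). Of 5 endothelial markers, Kdr, Pecam1 and Tek were higher there too and Cdh5 and Vwf lower, where 47.6% of all features passed. With slide as a block 0 were higher and 1 lower. Their summed signal, with Vwf as its largest part, was 3.85 to 4.11 in hCA-Notumor, 4.65 to 5.05 in hCA-Tumor and 4.44 to 4.94 in DMH. Cdh5 had no value on hCA-Notumor replicate 2, so the sum of that array lacks Cdh5 and is too low for that reason.

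The partners of claudins in the junction were described from a list of 34 names, of which 30 could be tested. They include occludin and its relatives, the JAM adhesion proteins, the angulins of the corners between 3 cells and the cytoplasmic scaffolds. In hCA-Notumor against DMH 5 rose and 3 fell (26.7%, median 0.04). In hCA-Tumor against DMH 10 rose and 3 fell (43.3%, median 0.09). Against hCA-Tumor, 3 were higher and 8 lower in hCA-Notumor (36.7%, median -0.06), and with slide as a block 4 were higher and 3 lower. Over all features the shares were 35.7%, 37% and 47.6%. Of the 3 partners lower in hCA-Notumor against DMH, 0 passed with the block.

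The membrane proteins among them went both ways. Ildr1, an angulin, fell by 0.29 ± 0.07 in hCA-Tumor (limma adjusted p = 0.0163) and by 0.23 ± 0.07 in hCA-Notumor (0.0445; within slide -0.25, adjusted p = 0.0507), named although it lies outside the rule on size. Cxadr, a JAM-like adhesion protein, rose in both groups, by 0.38 ± 0.06 (limma adjusted p = 0.00327) and 0.41 ± 0.06 (0.00224), with values of 1.45, 1.63 and 1.54 in hCA-Notumor, 1.64, 1.60 and 1.48 in hCA-Tumor and 1.18, 1.17 and 1.14 in DMH. The DMH arrays lay below all 6 others, as for Cldn12. Jam3 rose by 0.54 ± 0.11 in hCA-Tumor (limma adjusted p = 0.00855), and by 0.36 ± 0.11 in hCA-Notumor (0.0434; within slide 0.15, adjusted p = 0.424). Jam2, found also in endothelium, rose in hCA-Tumor by 0.53 ± 0.14 (0.0213). Lsr, the angulin that recruits tricellulin, was lower in hCA-Notumor than in hCA-Tumor by 0.65 ± 0.09 (limma adjusted p = 0.00109). Ocln, occludin itself, likewise outside that rule, rose by 0.19 ± 0.06 in hCA-Notumor (limma adjusted p = 0.0414; within slide 0.18, adjusted p = 0.123) and by 0.25 ± 0.06 in hCA-Tumor (0.0158). It had values of 1.32, 1.25 and 1.39, of 1.44, 1.39 and 1.27, and of 1.14, 1.09 and 1.14 in DMH, the lowest group.

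The scaffolds went both ways. Magi1, a junction scaffold, rose by 0.73 ± 0.08 in hCA-Tumor against DMH (limma adjusted p = 0.000654). Magi3, its relative, had values of -3.92, -3.84 and -3.91 in hCA-Notumor, -4.73, -4.95 and -4.72 in hCA-Tumor and -4.46, -4.43 and -4.39 in DMH, and thus the group order of Cldn2. It rose by 0.54 ± 0.07 in hCA-Notumor (0.00101) and fell by 0.37 ± 0.07 in hCA-Tumor (0.0049), where it was well above background on 2 of 3 arrays. Ybx3, a transcription factor that binds the scaffold Tjp1, fell by 0.65 ± 0.07 in hCA-Tumor (limma adjusted p = 0.000663). Tjp1, the main anchor of claudin tails, also outside the rule on size, differed by 0.06 ± 0.08 in hCA-Notumor and 0.07 ± 0.08 in hCA-Tumor (limma adjusted p = 0.544 and 0.536).

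The polarity genes Crb3 and Pard6b had large values that need care. Crb3 had values of -2.57, -2.71 and -2.39 in hCA-Notumor, 0.27, 0.22 and 0.31 in hCA-Tumor and -2.16, 0.31 and 0.22 in DMH. The 4 arrays of slide 1 were low and the 5 others high, so that its difference of -2.01 ± 0.60 in hCA-Notumor against DMH (limma adjusted p = 0.0358) was -0.39 within the slide (adjusted p = 0.0667). Pard6b had values of -4.76, -4.48 and -4.67 in hCA-Notumor, -6.25, -6.62 and -5.85 in hCA-Tumor and -6.48, -6.19 and -5.48 in DMH. It was well above background on 1 DMH array and on no hCA-Tumor array, and met the filter only through hCA-Notumor, where it was high, so no test is given, although it is counted among the rises.

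**Figure D4:**
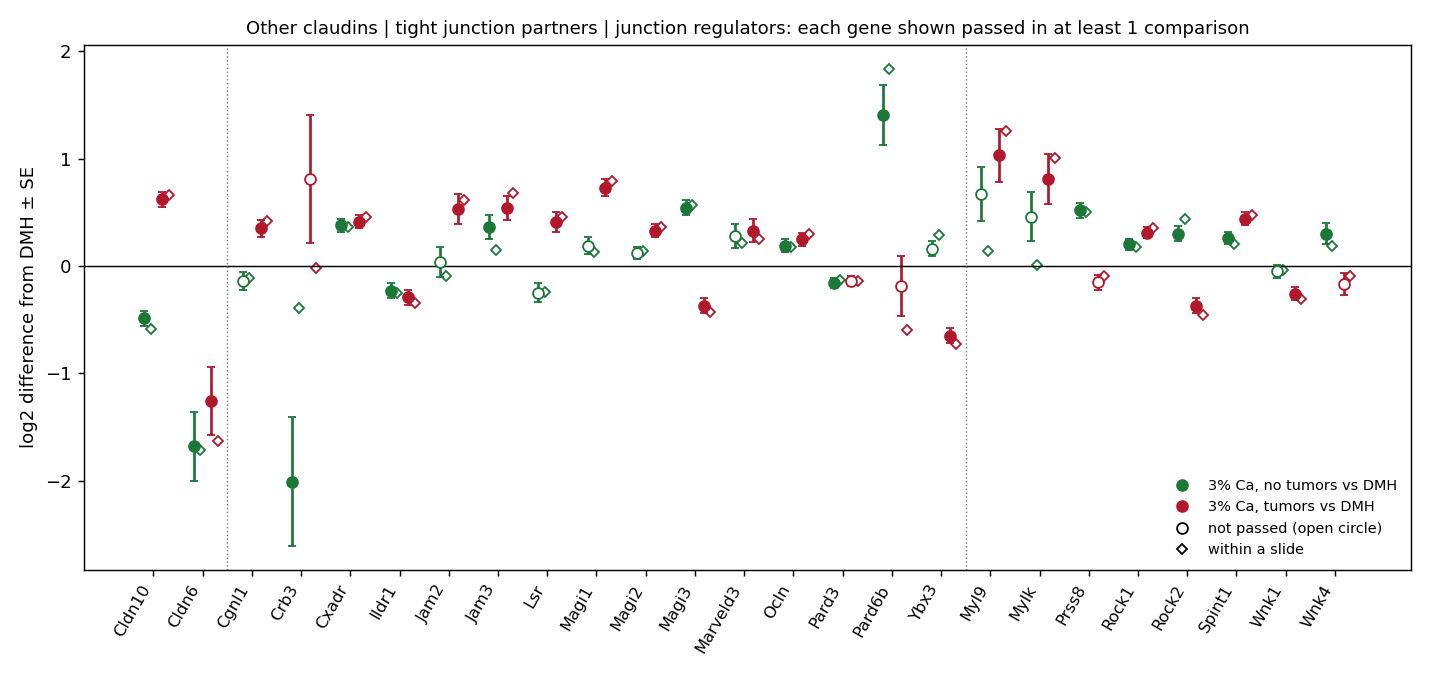
Log2 differences from DMH of other claudins, tight junction partners and junction regulators (left, middle and right), each of which passed the test in at least 1 high calcium group; circles give limma's estimate ± SE, filled where it passed, and open diamonds the within-slide difference. Cxadr rose in both groups, Cldn10 and Magi3 passed in opposite directions, and the circle of Crb3 in hCA-Notumor, at -2.01, is far from its within-slide value of -0.39. Cldn6 and Pard6b met the filter only through the group in which they were high.

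Regulators of the junction, from a list of 13 of which 12 were tested, include the myosin light chain kinase that opens junctions, the kinases Rock1 and Rock2, WNK kinases and the membrane proteases and inhibitors that act on claudins. In hCA-Notumor against DMH 5 rose and 0 fell (41.7%, where 35.7% of all features passed; median 0.28), and with slide as a block 2 rose. In hCA-Tumor against DMH 4 rose and 2 fell (50%, where 37% of all features passed; median 0.09). Prss8, a membrane protease also called prostasin, had values of 1.01, 0.81 and 0.92 in hCA-Notumor, 0.32, 0.27 and 0.14 in hCA-Tumor and 0.41, 0.37 and 0.39 in DMH. The groups were apart in the order of Cldn2, with a rise of 0.52 ± 0.07 in hCA-Notumor against DMH (limma adjusted p = 0.00116) and a difference of 0.67 ± 0.07 between the high calcium groups (0.00028). As for Cdx1 and Magi3, the share of all features with this order was not counted. Rock2, a kinase that raises actomyosin tension, rose by 0.30 ± 0.07 in hCA-Notumor (limma adjusted p = 0.0139) and fell by 0.37 ± 0.07 in hCA-Tumor (0.00528). Spint1, an inhibitor of such proteases, rose by 0.26 ± 0.06 in hCA-Notumor (0.0163; within slide 0.20, adjusted p = 0.16) and by 0.44 ± 0.06 in hCA-Tumor (0.00184). Mylk, the myosin light chain kinase, and its substrate Myl9 rose in hCA-Tumor by 0.81 ± 0.23 (limma adjusted p = 0.028) and 1.03 ± 0.25 (0.0141); both are also smooth muscle genes, and the smooth muscle markers rose with them as given above.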

How the data were processed

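Each of 9 RNA samples was measured on its own Agilent array (1 colour, design 014868). Per the file headers, the deposited intensity values are green processed signals with background subtracted, annotated on mouse build mm9; Agilent Feature Extraction 10.5.1.1 is named in the submitters' processing notes. A deposited table of the whole series gives log2 values for 23726 probes. Each of its columns equalled log2 of the processed signal minus that array's median (r of at least 0.999994); its column medians were 2.36 to 2.8, and it served as an alternative.

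Intensities were put on the log2 scale, and the 75th percentile of the array was taken off every value. Control and outlier spots were left out. Probes entered if every array of some group, 3 of 3, had them well above background (27192 of 41174 probes). Probes were named by accession through a RefSeq table of GRCm38.p6 (25097 named, 16077 unnamed), and the brightest kept probe stood for a gene. limma 3.58.1 in R 4.3.3 (lmFit, eBayes) was fitted over all 9 arrays with 4 contrasts, adjusted p under 0.05. The fit was tested on simulated data.

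Members, lists and tests were chosen with earlier results of these data known. Of the lists, up to 5 genes past the threshold per list and comparison were named, by size; a gene of the lists is counted but not reported here by name. Alternatives were normexp, quantile normalization, the whole-series table, other filters, a trended robust fit, slide and replicate blocks, and arrays left out. Replicate numbers did not pair the arrays (correlations of deviations from the group means were -0.57 to 0.22), so the fit has no replicate block. The main fit has no slide block either, although the random slide block put the correlation of arrays on the same slide at 0.61. Its p-values therefore do not allow for shared slides.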

Additional observations from a re-analysis of the deposited data

Results flagged for a closer look

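Cldn2 lay above DMH in hCA-Notumor by 0.20, which did not pass (adjusted p = 0.0607), and below it in hCA-Tumor by 0.49, a difference of -0.49 that passed (0.00188). The difference between those groups, 0.69 in log2 units higher without tumors, passed limma's test (adjusted p = 0.000284). Cldn10 had the opposite order, lower without tumors by 1.11, a difference of -1.11 (adjusted p = 3.4e-05). For Cldn5 the difference between the groups was 0.33 (adjusted p = 0.00858), which did not pass with slide as a block (0.25, adjusted p = 0.184). In each case the arrays of hCA-Notumor and hCA-Tumor did not overlap.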

How the results depend on the processing

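Over the 8 claudins and 4 comparisons, 612 alternative values kept sign and call, 33 lost a call, 10 gained one and 41 changed sign, none of the last where either fit passed. The number of arrays and 3 slides limit all values, and slide 3 held 1 array.

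The count of all features passing fell with normexp from 7530 to 3880 (hCA-Notumor against DMH), from 7795 to 4156 (hCA-Tumor against DMH), from 6665 to 3188 (mean of both) and from 10028 to 6292 (between high calcium groups). In the whole-series table, with fewer probes, it was 3339, 2403, 2144 and 4783. Between the high calcium groups it was 6319 with slide as a block and 6321 through the DMH arrays of each slide, of which 5014 features passed both without and with the block. Without DMH replicate 1 and hCA-Tumor replicate 3, chosen after seeing the data, 12612 passed in hCA-Notumor against DMH and 9631 in the mean of both. In that fit hCA-Notumor and DMH lie on different slides, so group and slide cannot be told apart, also for the hCA-Notumor part of the mean. The remaining hCA-Tumor and DMH arrays share slide 2. The same fit passed 5 claudins in hCA-Notumor against DMH, and the slide block and within-slide fits 1, against 3. The authors' whole-series values gave 3 claudins past the test in hCA-Tumor and 3 in the mean of both, against 5. Otherwise the cause was not tested.

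Leaving out each array in turn, features passing ranged from 5295 to 9425, 5977 to 8052, 4319 to 7473 and 8272 to 12263, claudins from 1 to 4, 4 to 6, 3 to 5 and 4 to 4, and the pore minus sealing balance from 0.28 to 0.37, -0.54 to -0.46, -0.13 to -0.05 and 0.78 to 0.87, in the order above. That balance kept its sign in every alternative run.

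Sign changes were all in small differences. Cldn3 in hCA-Notumor against DMH became -0.03 (quantile), -0.07 (whole-series table) and -0.04 (slide block and within slide); in hCA-Tumor -0.01 (normexp), -0.1 (whole-series), and -0.02 to 0.16 with arrays left out; in the mean -0.01 and -0.08 (quantile, whole-series); and between the high calcium groups -0.04 (quantile), -0.2 (slide block, within slide) and -0.06 (random slide block). Cldn7 in hCA-Notumor became -0.12, -0.14 and -0.01 (quantile, whole-series, slide); in hCA-Tumor 0.01 without hCA-Tumor replicate 2; in the mean -0.02 (normexp), -0.1 (quantile), -0.15 (whole-series), -0.01 (slide), 0 (random block), and -0.02 to 0.04 with arrays left out; and between the high calcium groups -0.04 (quantile). Between the high calcium groups Cldn8 became 0.01 (slide) and Cldn12 -0.06 (normexp, whole-series), 0 (quantile, slide) and -0.02 to 0.04 with arrays left out.

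Calls that were lost concern Cldn12, Cldn8, Cldn4 in hCA-Tumor (also -0.43, adjusted p = 0.141, in the whole-series table) and Cldn23 between the high calcium groups (0.36, adjusted p = 0.108, whole-series). With the replicate number as a block, 2, 5, 4 and 4 claudins passed; the block ended the calls of Cldn8 (adjusted p = 0.0575 in hCA-Notumor, 0.0829 in the mean). Replicate numbers are shared as names only, since same-numbered arrays did not deviate together. Scaling moved the median of all features in hCA-Notumor against DMH from 0.07 to -0.14 in the whole-series table, and the share of higher among the calls from 51.5% to 29.3%; in hCA-Tumor from 56.9% to 39.5% and in the mean from 56.5% to 30.3%. Against those medians, the falls of Cldn4 and the hCA-Tumor falls of Cldn2, Cldn15 and Cldn23 keep their direction in every scaling run.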
